A study of Danio rerio with 2 samples.

Results

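The Nr2f genes encode orphan nuclear receptors of the COUP-TF family. All 6 zebrafish members were taken from the 25434 features of the count files by their symbols, *nr2f1a* (ENSDARG00000052695), *nr2f1b* (ENSDARG00000017168), *nr2f2* (ENSDARG00000040926), *nr2f5* (ENSDARG00000033172), *nr2f6a* (ENSDARG00000003607) and *nr2f6b* (ENSDARG00000003165). Their levels were measured in cranial neural crest cells (NCCs) at 36 h post-fertilization (hpf), cell class by cell class, after inhibition of Gq/11 and in the solvent control.

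COUP-TF receptors bind paired hormone response half-sites as homodimers or with retinoid X receptors, and mostly act as repressors of transcription that compete with retinoid and thyroid hormone receptors. In the pharyngeal arches, zebrafish Nr2f genes promote the identity of the upper jaw, and signaling by Edn1 through Ednra holds them back in the lower jaw. Outside the crest, *Nr2f2* is best known in mammals for setting venous identity in endothelium.

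In the treated group, *Tg(sox10:mRFP);Tg(fli1a:EGFP)* embryos were kept in 100 µM YM-254890 (YM), a cyclic depsipeptide inhibitor of Gq/11, from 16 to 36 hpf, and in the control group embryos of the same genotype were kept in DMSO over the same window. Of 70 embryos per condition, 10 were kept aside, the remaining heads were pooled, and 86000 YM and 72000 DMSO cells positive for both reporters were sorted, of which 8000 per condition went into 1 droplet-based 3′ RNA-seq library each. Neither reporter is limited to the crest, as *fli1a:EGFP* also labels endothelium and *sox10:mRFP* also labels glia. The label of the DMSO sample gives the solvent as 10% DMSO, and the YM label gives no DMSO share. That value is above the upper limit that the paper names for the embryo medium. The paper states that 100 µM YM was the highest concentration that kept DMSO in the medium within this limit.

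With 1 library per condition, no difference between YM and DMSO has a replicate check and none was tested. Intervals are exact 95% intervals that cover counting error only, since cells of 1 library, all from 1 pool of heads, are not replicates. Calls kept 4429 YM and 3612 DMSO cells, with medians of 6527 and 5866 unique molecular identifiers (UMIs) and 1549 and 1476 genes. The kept cells held 30430258 UMIs in YM and 22166766 UMIs in DMSO, and 5 barcodes were kept in both libraries. EGFP sequence was detected in 97.9% of YM and 97.3% of DMSO cells, whereas mRFP sequence was detected in 1.29% and 0.471%. Doublets were not removed. From the UMIs of 8 haemoglobin genes, free RNA was estimated at 0.34% to 0.446% of the UMIs of each crest class in YM, and at 0.343% to 0.553% in DMSO apart from the dorsal arch 1-like class. That class gave 9.25%, with 994 of its 1081 haemoglobin UMIs in 1 cell.

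Cells of both libraries were clustered together without any Nr2f gene, and clusters were named from marker genes, giving 6 crest classes with 96.2% of YM and 95.9% of DMSO cells. Frontonasal-like cells (*pitx3* and *lmx1bb*, or *csf1b* and *zic2a*) numbered 1058 in YM and 775 in DMSO. Dorsal arch 1-like cells (*lhx8a*, *gbx2*, *lhx6*) numbered 1101 and 928, and dorsal arch 2-like cells (*pou3f3b*, *fsta*, *hoxb2a*) numbered 665 and 398. Ventral arch-like cells (*hand2*, *dlx4a*) numbered 575 in YM and 630 in DMSO, posterior arch-like cells (*prdm1a*, *hoxb5b*) 559 and 441, and *gata3*-positive-like cells (*gata3*, *isl2a*, *sost*) 304 and 293. These classes are rebuilt from the counts and need not hold the same cells as the clusters of the study. A level is given in CPM, the UMIs of the gene scaled by all UMIs of the class. The dorsal arch 1-like class is not purely dorsal. Its larger cluster also had *igfbp5b*, *grem2b* and *dlx6a* among its leading genes, and the paper lists *igfbp5b* and *grem2b* as intermediate domain genes. In DMSO the class held *hand2* at 149 CPM and *dlx4a* at 198 CPM, against 543 and 439 CPM in ventral arch-like cells. Dorsal arch 2-like cells of DMSO held 8.72 and 149 CPM. Levels of a gene are compared between classes and libraries, and genes are not ranked against each other by level. Sums and shares over the 6 genes take each UMI as it was counted. Reads that fit both copies of a close pair, *nr2f1a* and *nr2f1b* or *nr2f6a* and *nr2f6b*, could have been lost or assigned to the wrong copy, and how often this happened is unknown.

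Nr2f transcripts were found in every crest class and were scarce in the macrophages of the same libraries, but they were not limited to the crest. Summed over the 6 genes, frontonasal-like cells held 561 CPM in YM and 622 CPM in DMSO, dorsal arch 1-like cells 615 and 551 CPM, and dorsal arch 2-like cells 563 and 527 CPM. The sum was lower in ventral arch-like cells, with 329 CPM in YM and 351 CPM in DMSO, and lowest in *gata3*-positive-like cells, with 273 and 234 CPM. Macrophage-like cells, whose median depth of 9433.5 UMIs in YM and 8133 UMIs in DMSO was above that of every crest class in the same library, held 5 Nr2f UMIs in 28 YM cells and 8 in 29 DMSO cells, or 18.1 and 33.6 CPM. Epidermal-like cells, 48 in each library, held 485 CPM in YM (401 to 581) and 412 CPM in DMSO (342 to 492), within the range of the crest classes. Among the crest classes, the frontonasal and dorsal arch classes thus carried the most Nr2f RNA in both libraries, far above the macrophage level.

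The expression patterns of the members over the classes were unlike one another. Within a library, *nr2f1b* spanned the widest range, 55.6-fold in YM (interval 25.4 to 152) and 42.9-fold in DMSO (20.7 to 107) between dorsal arch 2-like and *gata3*-positive-like cells. *nr2f1a* spanned 14.8-fold in YM and 9.40-fold in DMSO, between frontonasal-like and ventral arch-like cells. *nr2f2* spanned 3.03-fold in YM and 3.98-fold in DMSO, and *nr2f5* 1.98-fold and 2.46-fold. For *nr2f6a* and *nr2f6b*, no class differed from another by more than 2.12-fold in either library.

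**Figure D1:**
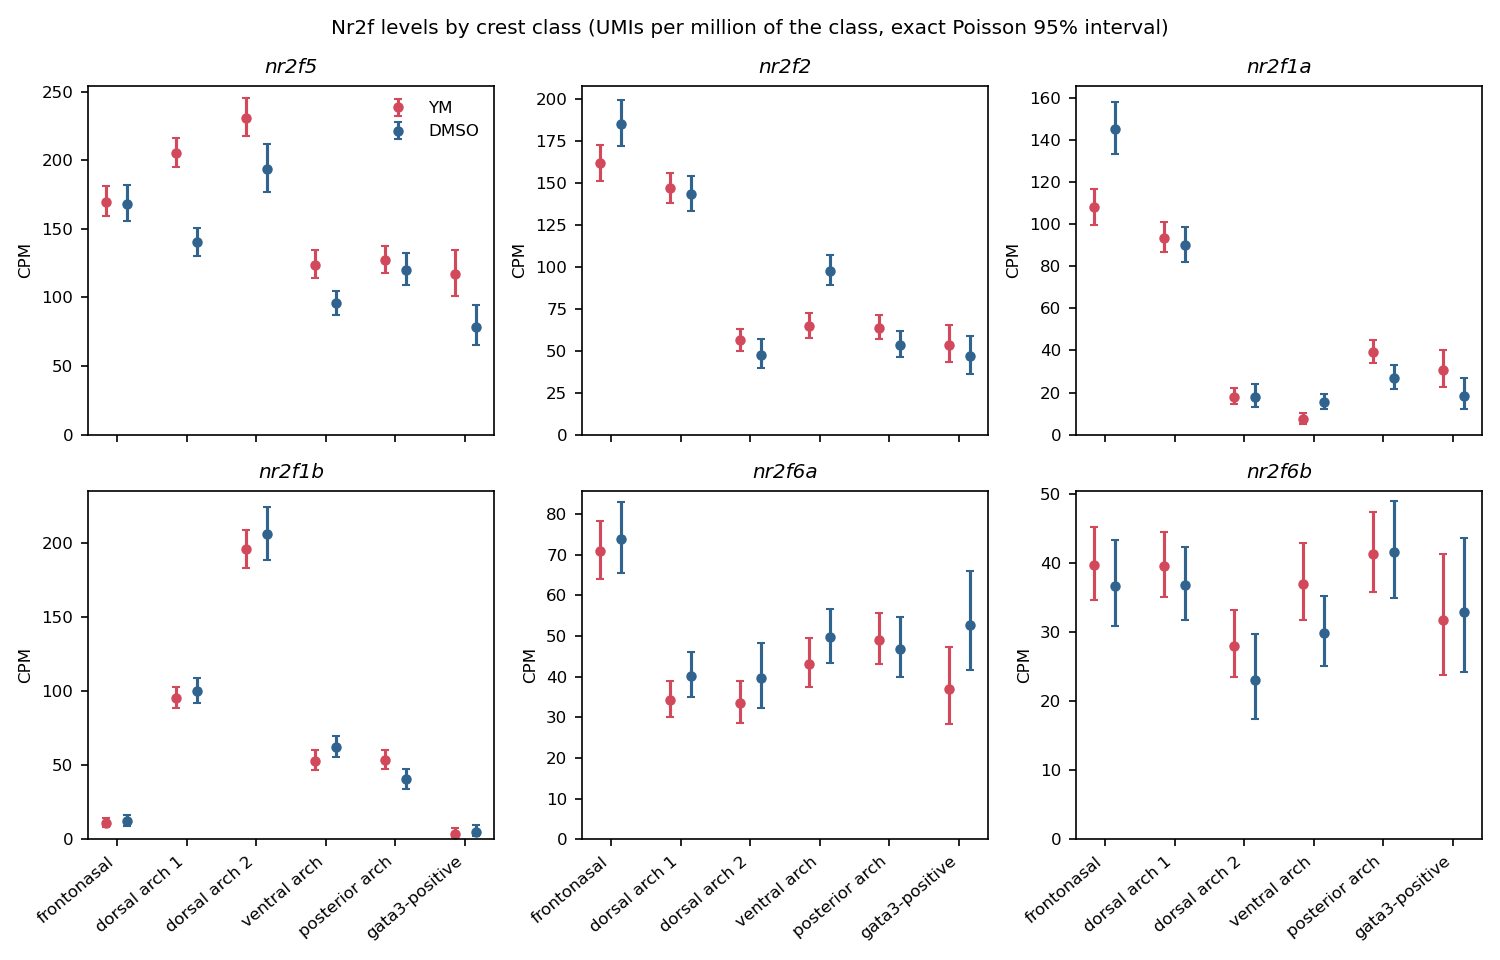
Level of each Nr2f gene (y axis, CPM) in the 6 crest classes (x axis), with YM left of DMSO in each class and exact Poisson 95% intervals as bars; each panel has its own axis from 0. *nr2f1b* peaks in dorsal arch 2-like cells, *nr2f1a* and *nr2f2* in frontonasal-like cells, and *nr2f5* lies higher in YM than in DMSO in dorsal arch 1-like, dorsal arch 2-like, ventral arch-like and *gata3*-positive-like cells.

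*nr2f5*, a member present in fish and without a counterpart of its own in mammals, is on the list of changed genes the study drew from these libraries, so its direction here is not independent evidence. It was highest in dorsal arch 2-like cells in both libraries, with 231 CPM in YM and 194 CPM in DMSO. Dorsal arch 1-like cells came next in YM, at 205 CPM, ahead of frontonasal-like cells at 170 CPM. In DMSO this order was turned, as dorsal arch 1-like cells stood at 140 CPM and frontonasal-like cells at 168 CPM, and in each library these neighbours differed beyond counting error. Posterior arch-like cells (127 CPM in YM, 120 CPM in DMSO), ventral arch-like cells (124 and 95.6 CPM) and *gata3*-positive-like cells (117 and 78.8 CPM) were lowest. Posterior, ventral and *gata3*-positive-like neighbours did not differ beyond counting error in YM, and in DMSO only the ventral and *gata3*-positive pair did not.

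Between the libraries, *nr2f5* was higher in YM in dorsal arch 1-like cells, where 1462 UMIs in YM stood against 735 UMIs in DMSO, a log2 ratio of YM to DMSO of 0.55 (interval 0.42 to 0.68). Both clusters of this class shared the direction, at 0.62 in the larger and 0.44 in the smaller, whose leading genes include histone genes. The log2 ratio was 0.26 in dorsal arch 2-like cells (0.10 to 0.41), 0.37 in ventral arch-like cells (0.19 to 0.55) and 0.57 in *gata3*-positive-like cells (0.23 to 0.91). The intervals reached 0 in frontonasal-like cells (0.01, -0.13 to 0.16) and in posterior arch-like cells (0.09, -0.09 to 0.27). The ratio in dorsal arch 1-like cells exceeded that in frontonasal-like cells by 0.54 on the log2 scale, with a counting interval of the difference that excluded 0. *nr2f5* thus stood higher in YM in the arch 1 and 2 classes and in *gata3*-positive-like cells, with no shift beyond counting error in the frontonasal and posterior classes.

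Some technical values moved with this result. The 9 erythroid markers summed to 11.9 CPM in YM and 204 CPM in DMSO dorsal arch 1-like cells, and to at most 14.5 CPM in any other crest class of either library. With the highest Scrublet scores removed and the classes kept, the *nr2f5* ratio in dorsal arch 1-like cells was 0.57. With free RNA subtracted it was 0.54 for 1 share per library (0.376% in YM and 2.53% in DMSO) and 0.50 for a share per class. In DMSO both of these shares rest mostly on the cell with 994 haemoglobin UMIs. Without erythroid-like and dorsal arch 1-like cells, the share was 0.382% in YM and 0.433% in DMSO. In ventral arch-like cells, the ratio of 0.37 became 0.07 when classes were set by the marker UMIs of each cell in place of clusters. A share of the dorsal arch 1-like cells had a *hand2* UMI, 10.3% in YM and 18.2% in DMSO after thinning to 3500 UMIs per cell, and in the cells of this class without one *nr2f5* stood at 218 CPM in YM and 154 CPM in DMSO, a log2 ratio of 0.50 (0.37 to 0.64).

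The share of cells with an *nr2f5* UMI had the same direction in these classes, but the thinned intervals were apart only in dorsal arch 1-like cells. In cells thinned to 3500 UMIs it was 45.0% in YM (41.9 to 48.1) and 34.6% in DMSO (31.3 to 37.9) dorsal arch 1-like cells (59.9% and 45.0% unthinned). It was 51.6% in YM (47.7 to 55.6) and 44.4% in DMSO (39.4 to 49.6) dorsal arch 2-like cells (75.3% and 60.8% unthinned). In ventral arch-like cells it was 31.2% (27.4 to 35.2) and 25.9% (22.5 to 29.6), or 51.8% and 42.9% unthinned. In *gata3*-positive-like cells it was 29.5% (24.2 to 35.3) and 23.2% (18.0 to 29.1). In macrophage-like cells it was 0 of 28 in YM and 0 of 29 in DMSO, which allows up to 12.3% and 11.9% (exact binomial). The medians behind these shares were 6340 UMIs in YM and 5564.5 UMIs in DMSO for dorsal arch 1-like cells.

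The receptor known best from venous endothelium, *nr2f2*, was highest in frontonasal-like cells, with 162 CPM in YM and 185 CPM in DMSO, and in dorsal arch 1-like cells, with 147 and 144 CPM. The ventral arch-like cells separated the libraries, with 312 UMIs or 64.8 CPM in YM against 449 UMIs or 97.8 CPM in DMSO. In DMSO they stood 1.83-fold above the next class, the posterior arch-like cells at 53.5 CPM. In YM they did not differ beyond counting error from posterior arch-like cells at 63.7 CPM, and the posterior, dorsal arch 2-like (56.1 CPM) and *gata3*-positive-like (53.5 CPM) neighbours did not differ beyond counting error either. For *nr2f2*, the ventral arch-like cells were thus set apart from the classes below them in DMSO and not in YM.

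The log2 ratio of *nr2f2* in ventral arch-like cells was -0.59 (interval -0.81 to -0.38). It was -0.54 and -0.65 in the 2 clusters of the class, and between -0.69 and -0.39 over 15 other ways of processing that kept such a class. Joined with the dorsal arch cells into 1 arch class, the ratio was -0.14 (-0.24 to -0.03). In frontonasal-like cells the ratio was -0.20 (-0.34 to -0.05), and here the clusters differed, with -0.53 (-0.87 to -0.18) in the smaller one, led by *csf1b* and *zic2a*, and -0.11 (-0.27 to 0.05) in the larger one, with *pitx3* among its leading genes. With classes set by the marker UMIs of each cell the frontonasal ratio was 0.01. In dorsal arch 1-like cells the ratio was 0.04 (-0.10 to 0.17). The dorsal arch 2-like ratio was 0.24 (-0.08 to 0.56) and in posterior arch-like cells 0.25 (-0.01 to 0.52). By cluster, the dorsal arch 2-like ratio was 0.58 (0.11 to 1.06) in the smaller one, led by *pax9*, and -0.04 (-0.47 to 0.40) in the larger one. In ventral arch-like cells *nr2f2* was therefore lower in YM and *nr2f5* higher, whereas in the dorsal arch 1-like, dorsal arch 2-like and *gata3*-positive-like cells (0.20, -0.27 to 0.67), where *nr2f5* was also higher, the *nr2f2* intervals of the whole classes reached 0. The difference between the ventral and dorsal arch 1-like ratios of *nr2f2* was 0.63 on the log2 scale (0.38 to 0.88), larger in the dorsal cells.

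Thinned to 3500 UMIs, 18.3% of YM and 25.4% of DMSO ventral arch-like cells had an *nr2f2* UMI (36.3% and 42.1% unthinned), against 1 of 28 YM and 0 of 29 DMSO macrophage-like cells. In dorsal arch 1-like cells the thinned share was higher in YM, at 35.8% (32.8 to 38.8) against 29.3% in DMSO (26.3 to 32.5). These intervals did not overlap, although the interval of the CPM ratio of *nr2f2* in that class reached 0. The barcodes close to empty held *nr2f2* at 50.4 CPM in YM and 92.1 CPM in DMSO, and with free RNA subtracted the ventral log2 ratio was -0.59. The 12 endothelial markers summed to between 3.33 and 28.4 CPM over the crest classes of YM and between 2.18 and 26.7 CPM over those of DMSO, with 5 to 8 of them at 0 in each class. A cluster without a class name, with 37 YM and 19 DMSO cells and *cdh5* and *kita* among its leading genes, held *nr2f2* at 139 and 95.2 CPM (27 and 8 UMIs).

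*nr2f1a*, a receptor needed in zebrafish for the atrial identity of heart muscle, was highest in frontonasal-like and dorsal arch 1-like cells. Frontonasal-like cells held 108 CPM in YM and 145 CPM in DMSO, and dorsal arch 1-like cells 93.6 and 90.2 CPM. Posterior arch-like cells followed with 39.1 CPM in YM and 27.0 CPM in DMSO, which did not differ beyond counting error from *gata3*-positive-like cells at 30.5 and 18.5 CPM. Dorsal arch 2-like cells held 18.1 CPM in YM and 17.8 CPM in DMSO, and ventral arch-like cells 7.27 CPM in YM and 15.5 CPM in DMSO. In DMSO the lowest 3 classes did not differ between neighbours, whereas in YM each of them did.

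The direction of the *nr2f1a* ratio turned from class to class. It was lower in YM in frontonasal-like cells, with 609 UMIs in YM and 551 UMIs in DMSO and a log2 ratio of -0.43 (interval -0.60 to -0.26) that was shared by the clusters of the class (-0.40 and -0.48). It was also lower in ventral arch-like cells, with 35 UMIs in YM and 71 UMIs in DMSO and a log2 ratio of -1.09 (-1.72 to -0.48). It was higher in posterior arch-like cells, 196 UMIs in YM and 93 UMIs in DMSO, with 0.53 (0.17 to 0.91), and in *gata3*-positive-like cells, 52 UMIs in YM and 27 UMIs in DMSO, with 0.72 (0.03 to 1.45). The dorsal arch classes gave 0.05 (-0.12 to 0.23) and 0.02 (-0.52 to 0.57), with no shift beyond counting error. In thinned cells, 1.60% of YM and 5.57% of DMSO ventral arch-like cells had an *nr2f1a* UMI (4.87% and 8.41% unthinned), which lay within the limits set by 0 of 28 YM and 0 of 29 DMSO macrophage-like cells, so the few UMIs of this class give no firm order.

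Several of these *nr2f1a* ratios moved with the processing. The ventral ratio was -0.22 after removal of the cells scored highest by Scrublet and a new clustering of the rest, and -1.0 when the same cells were taken out of the classes as they stood. It was -0.51 with the order-of-magnitude calling rule alone and -0.57 with no mitochondrial limit. With classes set by the marker UMIs of each cell, the frontonasal ratio was -0.02 and the *gata3*-positive ratio -0.61, while the ventral ratio was -1.09 and the posterior ratio 0.39.

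Its paralog *nr2f1b* had its peak in the second arch. Dorsal arch 2-like cells held 196 CPM in YM and 206 CPM in DMSO, 2.05-fold and 2.06-fold above dorsal arch 1-like cells at 95.3 and 100 CPM. Ventral arch-like cells held 53.0 CPM in YM and 62.3 CPM in DMSO, and posterior arch-like cells 53.7 and 40.4 CPM, a pair that differed beyond counting error in DMSO and not in YM. Frontonasal-like cells, where *nr2f1a* was highest, held 11.0 CPM of *nr2f1b* in YM and 12.1 CPM in DMSO, and *gata3*-positive-like cells 3.52 and 4.80 CPM from 6 and 7 UMIs. The paralogs thus differed in the class in which each was highest, in both libraries.

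Between YM and DMSO, the *nr2f1b* intervals reached 0 in the arch 1 and 2 classes taken whole, with log2 ratios of -0.07 (-0.23 to 0.09) for the dorsal arch 2-like class, -0.07 (-0.24 to 0.10) for the dorsal arch 1-like class and -0.23 (-0.48 to 0.02) for the ventral class. By cluster, the ratio was below 0 beyond counting error in the larger ventral cluster (-0.37, -0.70 to -0.04) and the larger dorsal arch 2-like cluster (-0.22, -0.43 to -0.01). In the smaller cluster of each the interval reached 0 (-0.03, -0.43 to 0.36, and 0.12, -0.12 to 0.36). In posterior arch-like cells *nr2f1b* was higher in YM, 269 UMIs in YM against 139 UMIs in DMSO, with a log2 ratio of 0.41 (0.11 to 0.72). Both *nr2f1* paralogs were therefore higher in YM in the posterior arch-like cells, where *nr2f5* and *nr2f2* had intervals that reached 0.

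The less studied pair, *nr2f6a* and *nr2f6b*, counterparts of mammalian *Nr2f6* (EAR2), was more even over the classes. *nr2f6a* was highest in frontonasal-like cells, with 70.9 CPM in YM and 73.9 CPM in DMSO, above the next class in both libraries, and lowest in dorsal arch 2-like cells, with 33.5 and 39.7 CPM. The other neighbours in its order did not differ beyond counting error. *nr2f6b* lay between 28.1 and 41.3 CPM in YM and between 23.0 and 41.5 CPM in DMSO, lowest in dorsal arch 2-like and highest in posterior arch-like cells, and no neighbours differed. Between the libraries, the interval excluded 0 once in the 12 comparisons of this pair, for *nr2f6a* in *gata3*-positive-like cells with 63 UMIs in YM and 77 UMIs in DMSO (log2 ratio -0.51, -1.02 to -0.01).

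**Figure D2:**
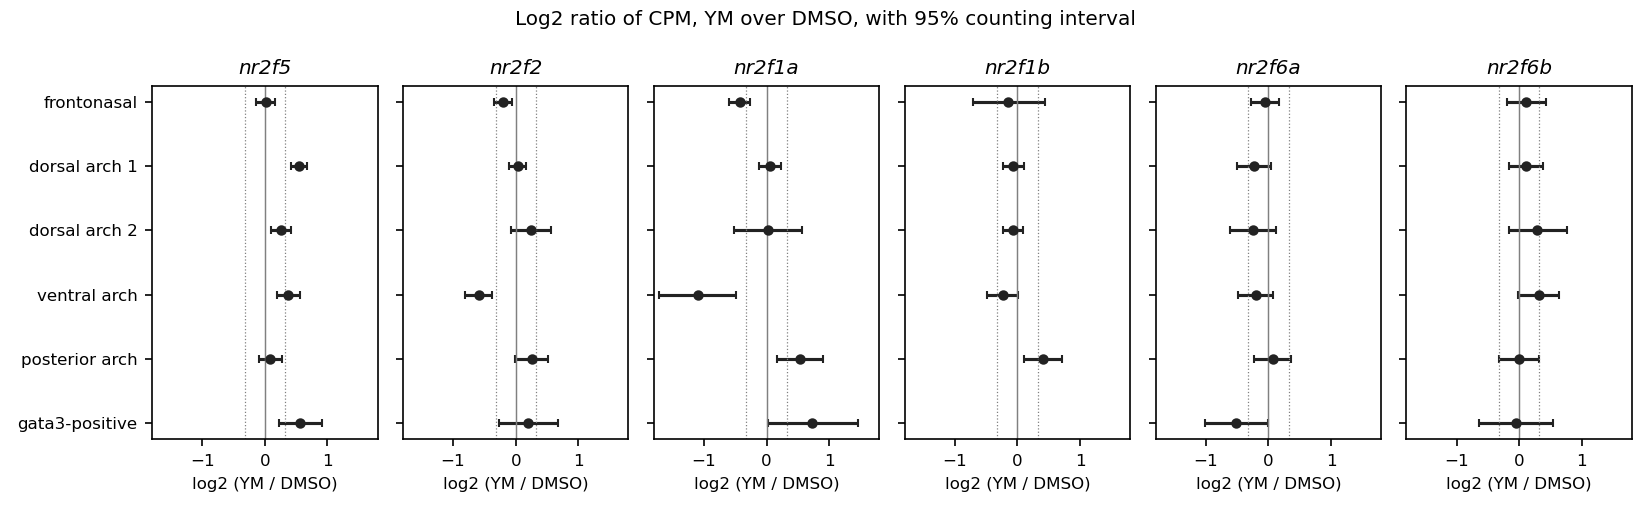
Log2 ratio of YM to DMSO (x axis) of each Nr2f gene by crest class (y axis), with 95% counting intervals as bars; the solid line marks 0 and the dotted lines a log2 ratio of 0.32 in each direction, and a gene with fewer than 40 UMIs over both libraries is not drawn. Ratios of *nr2f5* lie at or right of 0, *nr2f2* is left of the dotted line in ventral arch-like cells (-0.59), and *nr2f1a* lies left of 0 in frontonasal-like and ventral arch-like cells and right of it in posterior arch-like and *gata3*-positive-like cells.

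Members were counted as higher or lower past a log2 ratio of 0.32 in size, and read against all genes with at least 40 UMIs over both libraries. In ventral arch-like cells, 1 of 6 members was higher past this limit in YM and 2 were lower, where 10.4% of 7664 genes were higher and 14.8% lower. The dorsal arch 1-like class had 1 of 6 members higher (9.59% of 8277 genes) and 0 lower (13.7%). None of 6 passed in dorsal arch 2-like cells, where 11.5% of 6834 genes were higher and 15.4% lower. In frontonasal-like cells, 0 were higher (9% of 8181 genes) and 1 of 6 lower (14.4%). In posterior arch-like cells, 2 of 6 were higher (10.8% of 7289 genes) and 0 lower (15.6%). In *gata3*-positive-like cells, with *nr2f1b* under the minimum, 2 of 5 were higher (11.1% of 5073 genes) and 1 lower (17.7%). The median log2 ratio over the members was -0.22 in ventral arch-like cells, 0.04 in dorsal arch 1-like cells and 0.13 in dorsal arch 2-like cells, and over all genes it was between -0.02 and -0.06 in every class. As a family the Nr2f genes did not share a direction, and the sum of their UMIs differed by a log2 ratio of -0.09 (-0.19 to 0.01) in the ventral class and 0.16 (0.09 to 0.23) in the dorsal arch 1-like class. The ratio of the sum was 0.09 (-0.002 to 0.19) in the dorsal arch 2-like class and -0.15 (-0.23 to -0.07) in the frontonasal class. It was 0.19 (0.08 to 0.29) in the posterior class and 0.22 (0.02 to 0.43) in the *gata3*-positive class.

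The position of arch cells was also read from genes that took no part in the clustering, although they are among the markers that named the classes. *hand2* marks the ventral arches, and *hoxa2b* and *hoxb2a*, together called hox2 here, mark the second arch. The cells of the 3 arch classes with at least 3500 UMIs were placed in 4 bins by whether a UMI of *hand2* and of hox2 was seen after thinning, and the levels were then taken from all UMIs of these cells. In YM and DMSO, 1228 and 897 cells had neither, 219 and 306 had *hand2* alone, 552 and 390 had hox2 alone, and 234 and 234 had both. A bin without a UMI also holds cells whose RNA was missed, and the make-up of a bin differed between the libraries, as dorsal arch 2-like cells were 81.2% of the YM and 67.7% of the DMSO cells with hox2 alone. *hand2* was itself detected less often in YM. After thinning, 10.3% of YM (8.49 to 12.3) and 18.2% of DMSO (15.7 to 21.0) dorsal arch 1-like cells had its UMI. Ventral arch-like cells gave 60.1% in YM and 62.3% in DMSO, with intervals that overlapped. A *hand2* bin is thus not a fixed position, and cells of the same position could be binned differently in YM and DMSO. How far this shifted the ratios of the bins was not tested. The use of hox2 beside *hand2* was added after the data were seen.

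*nr2f5* varied with *hand2* and hardly with hox2. Without hox2, it stood at 213 CPM in YM and 156 CPM in DMSO cells lacking *hand2*, against 79.9 and 65.8 CPM in cells with *hand2*, a fold of 2.67 in YM (2.24 to 3.20) and 2.37 in DMSO (1.98 to 2.86). With hox2 the fold was 2.77 in YM and 2.51 in DMSO. Between arches at the same *hand2* state the folds were at most 1.16. In cells without *hand2*, the log2 ratio of YM to DMSO was 0.45 (0.34 to 0.57) without hox2 and 0.35 (0.19 to 0.51) with it, and in the smaller bins with *hand2* both intervals reached 0 (0.28 and 0.21). With hox2 set aside, the ratio was 0.25 (0.0061 to 0.50) in cells with *hand2* and 0.42 (0.33 to 0.51) in cells without. With *hand2* read from the unthinned cells, it was 0.36 (0.15 to 0.58) and 0.40 (0.31 to 0.50). Within classes, the ratio in cells with *hand2* was 0.27 (-0.01 to 0.56) for the ventral arch-like and 0.15 (-0.39 to 0.68) for the dorsal arch 1-like cells. *nr2f5* was thus higher in YM in cells where no *hand2* UMI was seen, a bin that can differ in position between the libraries. In cells with *hand2* the sign was the same, but the interval reached 0 once these cells were split by hox2 or by class.

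*nr2f2* was higher without *hand2* in cells lacking hox2, and not in cells with hox2. Without hox2 it stood at 132 CPM in YM and 135 CPM in DMSO cells lacking *hand2*, against 46.2 and 55.6 CPM with *hand2*, a fold of 2.85 in YM and 2.43 in DMSO. With hox2, cells lacking *hand2* held 63.0 CPM in YM and 79.6 CPM in DMSO, against 60.0 and 100 CPM with *hand2*, a fold of 1.05 in YM (0.842 to 1.32) and 0.795 in DMSO (0.646 to 0.980). In the DMSO library, *nr2f2* in the hox2 bins was thus higher where *hand2* was seen, the reverse of the bins without hox2. These hox2 bins differ in class, as 67.7% of the DMSO cells with hox2 alone were dorsal arch 2-like and 96.6% of those with both were ventral arch-like. Within the ventral arch-like class of DMSO, *nr2f2* was instead higher without *hand2*, at 116 CPM against 88.4 CPM, a fold of 1.31 (1.08 to 1.58).

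Between the libraries, *nr2f2* was lower in YM beyond counting error in the bins with hox2, and the intervals reached 0 in the bins without it. In cells with both *hand2* and hox2 the log2 ratio was -0.74 (-1.09 to -0.39), and in those with hox2 alone -0.34 (-0.61 to -0.07). The bin with hox2 alone mixes classes in different shares in YM and DMSO, and within the classes the ratio without a *hand2* UMI was 0.27 (-0.05 to 0.60) for the dorsal arch 2-like and -0.68 (-1.0 to -0.36) for the ventral cells. In cells with *hand2* alone it was -0.27 (-0.70 to 0.16), and in cells with neither -0.04 (-0.17 to 0.10). Within ventral arch-like cells, those with hox2 held *nr2f2* at 64.4 CPM in YM and 118 CPM in DMSO, a log2 ratio of -0.87 (-1.16 to -0.60), and those without held 64.9 and 75.4 CPM, a ratio of -0.22 (-0.56 to 0.12). *nr2f5* was arranged the other way round in this class, with a log2 ratio of 0.18 (-0.07 to 0.43) in cells with hox2 and 0.59 (0.32 to 0.86) in cells without.

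The *nr2f1* paralogs were both low where *hand2* was seen. *nr2f1a* was highest in cells with neither marker, at 77.0 CPM in YM and 77.7 CPM in DMSO, against 8.88 and 18.9 CPM with *hand2* alone, a fold of 8.67 in YM (5.22 to 15.6) and 4.12 in DMSO (2.96 to 5.87). Among cells without *hand2*, its level with hox2 was 0.239 of that without in YM and 0.234 in DMSO. *nr2f1b* was instead highest with hox2 alone, at 174 CPM in YM and 170 CPM in DMSO, and its fold over cells with both markers was 4.92 in YM and 4.81 in DMSO. *nr2f1a* was lower in YM in both bins with *hand2*, with log2 ratios of -1.09 (-2.05 to -0.20) on 15 UMIs in YM and 39 UMIs in DMSO, and -1.40 (-2.64 to -0.28) on 10 UMIs in YM and 23 UMIs in DMSO. *nr2f6a* and *nr2f6b* differed by at most 1.35-fold between neighbouring bins in either library.

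**Figure D3:**
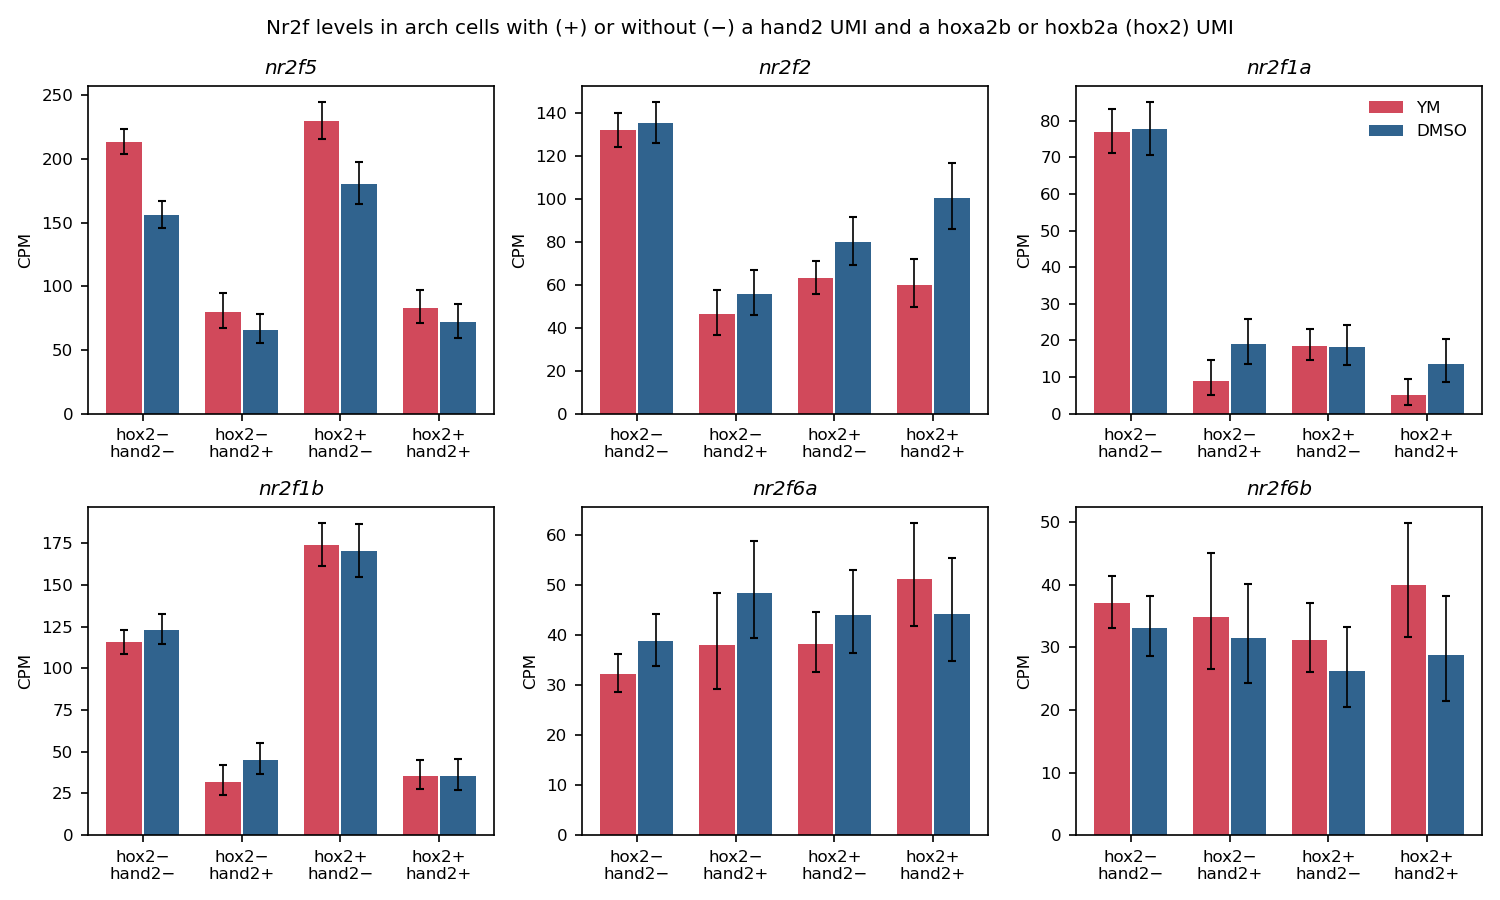
Level of each Nr2f gene (y axis, CPM) in arch cells with (+) or without (−) a UMI of *hand2* and of *hoxa2b* or *hoxb2a* (hox2) (x axis), with YM left of DMSO and exact Poisson 95% intervals as bars. *nr2f5* is high without *hand2* in both arches, *nr2f1a* with neither marker and *nr2f1b* with hox2 alone, and *nr2f2* in cells with both markers stands at 60.0 CPM in YM and 100 CPM in DMSO.

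The make-up of the Nr2f UMIs differed between the libraries, through different members in different classes. *nr2f5* gave 37.6% of the Nr2f UMIs of ventral arch-like cells in YM and 27.3% in DMSO, and 33.4% and 25.4% of those of dorsal arch 1-like cells. *nr2f2* gave 19.7% of the ventral UMIs in YM and 27.9% in DMSO, while its share of frontonasal-like UMIs was 28.8% and 29.8%. *nr2f6a* gave 13.5% of the Nr2f UMIs of *gata3*-positive-like cells in YM and 22.5% in DMSO, and *nr2f1a* 19.2% and 23.4% of those of frontonasal-like cells. In dorsal arch 2-like cells, *nr2f1b* gave 34.8% in YM and 39.0% in DMSO, while *nr2f1a* gave 3.21% and 3.38%. A share depends on the other members as well as on its own gene, so it carries less than the CPM above.

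**Figure D4:**
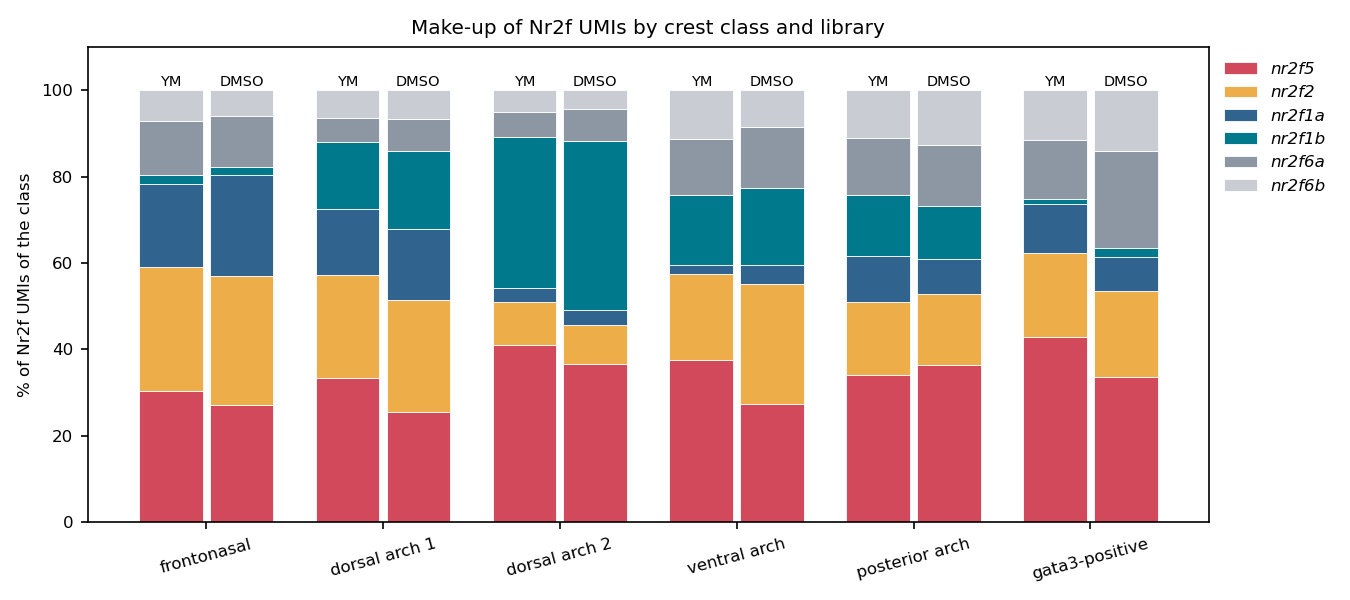
Share of the Nr2f UMIs of each crest class (y axis, percent) given by each of the 6 genes (stacked colours), with YM left of DMSO in each class (x axis). *nr2f5* is 37.6% of the ventral arch-like bar in YM and 27.3% in DMSO, and *nr2f1b* nearly vanishes from the frontonasal-like and *gata3*-positive-like bars.

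Detection of pairs of members in the same cells was also read. For each class and each of the 15 pairs, the share of thinned cells with the second member was compared between cells with and without the first, and the intervals did not overlap in 9 of 90 comparisons in YM and 9 of 90 in DMSO, all of them higher with the first member. Of these, 6 in YM and 5 in DMSO were in dorsal arch 1-like cells, and 0 were in dorsal arch 2-like or *gata3*-positive-like cells in either library. Some of the latter rest on few cells, such as 3 YM and 4 DMSO *gata3*-positive-like cells with *nr2f1b*. Other pairs of genes were not counted, so the counts have no background share and do not show anything particular to the Nr2f genes. A class can also mix cells: in DMSO the 2 frontonasal clusters held *nr2f1a* at 164 and 87.5 CPM and *nr2f2* at 198 and 147 CPM. Among DMSO dorsal arch 1-like cells, *nr2f1a* was 4.66-fold and *nr2f2* 4.23-fold higher without a *hand2* UMI than with one. In thinned frontonasal-like cells, *nr2f2* was detected in 56.5% of cells with an *nr2f1a* UMI and 24.9% of cells without one in YM, and in 55.4% and 27.3% in DMSO. In dorsal arch 1-like cells the same shares were 52.7% and 31.0% in YM and 53.3% and 23.4% in DMSO. In dorsal arch 1-like cells *nr2f1b* was likewise seen more often with *nr2f1a*, 42.5% against 17.2% in YM and 36.5% against 21.1% in DMSO. In frontonasal-like cells *nr2f1a* was seen in 24.9% of cells with and 26.3% of cells without an *nr2f5* UMI in YM, and in 27.2% and 33.5% in DMSO. At 3500 UMIs per cell, 44.2% of YM and 39.8% of DMSO dorsal arch 1-like cells had UMIs of at least 2 members, against 22.9% and 25.7% of ventral arch-like cells and 0 of 28 YM and 0 of 29 DMSO macrophage-like cells.

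Over the 12 levels that the 6 classes and 2 libraries give, the genes with the most similar pattern were picked by Pearson's r of log2(CPM + 1) among 1814 genes with a mean of at least 50 CPM, for the 5 members that reached 50 CPM in a class. These points share 2 libraries and several lie in neighbouring classes, so r is a description. For *nr2f5* they were *jag1b* (r = 0.93), a Notch ligand of the dorsal arches, *her6* (0.92), a hairy-related repressor downstream of Notch, and *midn* (0.87). *jag1b* stood at 103 CPM in YM and 66.9 CPM in DMSO dorsal arch 1-like cells, and at 203 and 164 CPM in dorsal arch 2-like cells. For *nr2f2* they were *tead1b* (0.92), a transcription factor of the Hippo pathway, *fn1a* (0.87), a fibronectin, and *zfhx3* (0.82). For *nr2f1a* they were *hmgn3* (0.90), *zfhx3* (0.84) and *col1a1b* (0.84), a type I collagen chain. The gene *zfhx3* stood at 295 CPM in YM and 293 CPM in DMSO frontonasal-like cells and at 47.6 and 62.7 CPM in ventral arch-like cells. For *nr2f1b* they were the ribosomal protein genes *rpl39* (0.90) and *rpl37* (0.89), and *btf3* (0.88). The r takes no account of the size of a span, and these genes were far more even than *nr2f1b*, which spanned 55.6-fold in YM. *rpl39* lay between 11018 and 13725 CPM and *btf3* between 1091 and 1496 CPM. For *nr2f6a* they were *glrx* (0.95), *arpc4* (0.94) and *clta* (0.90). Among the members themselves, *nr2f1a* and *nr2f2* were most alike (0.81), and *nr2f1a* and *nr2f1b* were not (-0.20).

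Genes of the same dorsal program and of the opposing lower jaw program were read from lists whose members are among the genes the study reports on these libraries, so their direction is not independent evidence either. The lower jaw list mixes domains. The paper counts its *dlx3b*, *dlx4a*, *dlx4b*, *emx2*, *msx1a* and *nkx3-2* as intermediate domain genes, and *hand2* and *dlx5a* as ventral. Of the dorsal list, 4 of 6 genes were higher past a log2 ratio of 0.32 in YM dorsal arch 1-like cells and 4 of 5 in YM ventral arch-like cells, with 0 lower, where 9.59% and 10.4% of all genes were higher. It was not limited to these classes, as 4 of 4 were higher in *gata3*-positive-like cells (11.1% of all genes), 3 of 4 in posterior arch-like cells (10.8%) and 2 of 4 in frontonasal-like cells (9%). The median log2 ratio of the list was 0.57 in dorsal arch 1-like, 0.76 in ventral arch-like, 0.76 in *gata3*-positive-like and 0.71 in posterior arch-like cells. It was lower in dorsal arch 2-like cells (0.24) and frontonasal-like cells (0.30). In ventral arch-like cells *her9*, a hairy-related repressor, stood at 55.5 CPM in YM and 26.1 CPM in DMSO (log2 ratio 1.09, 0.77 to 1.41), *jag1b* at 46.8 and 26.6 CPM (0.82) and *hey1*, a Notch target, at 99.1 and 58.6 CPM (0.76). In dorsal arch 2-like cells 2 genes were higher, *her9* (1.2) and *her6* (0.49), and 2 lower, the POU factor genes *pou3f3a* (-0.52, -0.83 to -0.21) and *pou3f3b* (-0.41, -0.54 to -0.27). Of the lower jaw list, 10 of 10, 8 of 9 and 8 of 9 genes were lower in dorsal arch 1-like, dorsal arch 2-like and ventral arch-like cells, where 13.7%, 15.4% and 14.8% of all genes were lower. The distal-less factor genes *dlx4a* (61.1 CPM in YM and 439 CPM in DMSO, -2.84) and *dlx3b* (76.3 and 230 CPM, -1.59), both intermediate domain genes, were among them in ventral arch-like cells. Of the ventral genes, *dlx5a* stood at -0.67 there and *hand2* at -0.22, which did not pass the limit. The lower jaw list was not limited to these classes either, as 3 of 7 genes were lower in frontonasal-like cells (14.4% of all genes). In *gata3*-positive-like cells 2 of 3 were lower (17.7%), and in posterior arch-like cells 2 of 4 were lower (15.6%) and 1 higher (10.8%). In sign alone, *nr2f2* and *nr2f1a* in the ventral cells went with the lower jaw list and *nr2f5* with the dorsal list. Whether a member belongs to either program was not tested, and the ventral *nr2f1a* ratio rests on 35 UMIs in YM and 71 UMIs in DMSO.

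Partners and competitors of COUP-TF receptors were mostly too sparse for a firm statement. Of the retinoid receptors, 6 of 9 reached 40 UMIs in ventral arch-like cells. There *raraa*, a retinoic acid receptor gene, stood at 19.7 CPM in YM and 10.9 CPM in DMSO (log2 ratio 0.86, 0.35 to 1.38), and *rxrbb*, a retinoid X receptor gene, at 3.53 and 7.84 CPM on 17 and 36 UMIs (-1.15, -2.07 to -0.28). In the same cells *rargb* (0.69, -0.09 to 1.5) and *rarab* (0.42, -0.03 to 0.88) were past this limit with intervals that reached 0. In dorsal arch 2-like cells *rarab* stood at 25.1 CPM in YM and 16.3 CPM in DMSO (0.63, 0.11 to 1.18), and *rxrbb* at 7.07 and 3.17 CPM (1.16, 0.02 to 2.48), the opposite sign to its ventral ratio. In dorsal arch 1-like cells 3 of 7 were past the limit as higher (9.59% of all genes) and 2 as lower (13.7%). All of these had intervals that reached 0, among them *rargb* (0.43), *raraa* (0.34), *rxrbb* (-0.54) and *rxraa* (-0.44).

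Of the retinoic acid metabolism genes, *cyp26b1*, which encodes a degrading enzyme, stood at 3.51 CPM in YM and 8.39 CPM in DMSO dorsal arch 1-like cells (-1.26, -2.03 to -0.52), while *rdh10b*, for a retinol dehydrogenase, had an interval that reached 0 (0.46, -0.01 to 0.94). *cyp26c1*, for another degrading enzyme, stood at 8.52 CPM in YM and 3.17 CPM in DMSO dorsal arch 2-like cells on 41 and 8 UMIs (1.43, 0.31 to 2.73). Of the cofactor genes, *bcl11aa* (0.43) and *bcl11ab* (0.34) were past the limit in dorsal arch 1-like cells with intervals that reached 0. Of 6 other Nr2 genes, 1 reached 40 UMIs in each class and did not pass the limit.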

How the data were processed

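The deposited files hold raw counts of UMIs for each gene and barcode of 2 libraries, which the authors made with Cell Ranger 5.0.1 on GRCz11 per their methods (the file header names Cell Ranger 4), with no normalization or cell filter. Their tables of cluster markers and of their own fold changes were used for gene names only. Cells were called by the order-of-magnitude rule and a test against near-empty barcodes (Python 3.11.15, numpy 2.4.6, scipy 1.17.1), and the study's limits of 200 to 3500 (YM) or 3000 (DMSO) genes and 5% mitochondrial UMIs applied. Scrublet in scanpy 1.11.5 marked 2 called cells per library, so it gave no working call.

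Clustering used Seurat 5.3.0 in R 4.3.3 (30 components, resolution 0.8, cell cycle regressed), with the Nr2f genes, the study's changed genes and the patterning genes left out. The 17 clusters were named from fixed markers. The arch markers come from the study's own account of these libraries.

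UMIs were summed per class and library, giving CPM with exact Poisson, ratios with exact conditional binomial and shares with exact binomial 95% intervals. The intervals of differences between ratios are approximate. Cells under 3500 UMIs, 372 in YM and 394 in DMSO, were left out of thinned shares. The steps were tested on simulated data. Genes named are the 6 members, the 3 most similar genes of each member that reached 50 CPM in a class, and from each list up to 4 genes past a log2 ratio of 0.32 per arch class with at least 40 UMIs. Members and lists were chosen with earlier results of these data known. Alternatives changed calling, filters, clustering, classes, scaling (TMM from edgeR 4.0.16), thinning and free RNA. Some listed genes are not reported here.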

Additional observations from a re-analysis of the deposited data

Results flagged for a closer look

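The ratio of YM to DMSO of *nr2f1a* pointed in opposite directions in pairs of classes, with each interval clear of 0. As the first class minus the second on the log2 scale, the gap was -0.96 for frontonasal-like and posterior arch-like cells and -1.15 for frontonasal-like and *gata3*-positive-like cells. It was -1.62 for ventral arch-like and posterior arch-like cells and -1.81 for ventral arch-like and *gata3*-positive-like cells. With 1 library per condition these differences were not tested. The posterior ratio was between 0.39 and 0.58 over 16 other settings that kept this class. The other classes were less stable. Over such settings the frontonasal ratio was between -0.54 and -0.02 and the ventral ratio between -1.85 and -0.22. The *gata3*-positive ratio, which rests on 52 UMIs in YM and 27 UMIs in DMSO, was between -0.61 and 0.88 and so changed sign.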

How the results depend on the processing

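No paired analysis was possible because each condition has 1 library. Of the log2 ratios of single members, 574 alternative values stayed within the counting interval of the value given and 30 moved outside it. Another 3 turned in sign from a ratio past 0.32 in size: *nr2f1a* in *gata3*-positive-like cells with classes from marker UMIs (-0.61), and in posterior and *gata3*-positive-like cells with all kept cells as 1 class (-0.056). Smaller ratios that crossed 0 are not among these 3. Over the settings, *nr2f2* reached 0.014 in frontonasal-like, -0.38 in dorsal arch 2-like and -0.32 in *gata3*-positive-like cells. *nr2f1b* reached 0.87 in frontonasal-like cells. Ventral *nr2f1a* was -1.85 with thinned cells, -0.22 with the highest Scrublet scores removed, -0.056 over all kept cells and -0.017 with the 3 arch classes joined. Ventral *nr2f2* was -0.082 and -0.14 in the last 2 settings, and *nr2f5* 0.35 over all kept cells for dorsal arch 1-like and 0.49 in joined arch classes for dorsal arch 2-like cells. Dorsal arch 2-like *nr2f5* was 0.46 without cell cycle regression, where no ventral class formed, and ventral *nr2f5* was 0.073 with marker UMI classes. The cause was not tested. The share of genes past a log2 ratio of 0.32, higher and lower in YM, was 18.4% and 26.4% in dorsal arch 1-like, 19.5% and 27.6% in dorsal arch 2-like and 19.3% and 23.3% in ventral arch-like cells with 1 UMI in each library as minimum. With a fold of 1.5 it was 2.86% and 3.90%, 3.60% and 4.16%, and 2.97% and 4.25%. With at least 100 UMIs it was 6.30% and 8.53% in dorsal arch 1-like cells, and 7.46% (higher) in dorsal arch 2-like cells. The joined arch classes, the hox2 bins, the fold of 1.5, the free RNA share per class and the removal of Scrublet scores with classes kept were chosen after seeing the data. TMM factors shifted ratios by 0.04 to 0.07 upward, and no member changed sign where its interval excluded 0. Without thinning, 64 shares of cells lay outside their thinned intervals and 8 within.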
